A study of Mus musculus with 14 samples.

Results

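Neutrophil granule genes were followed in cultured mouse erythroid progenitors. The genes were Mpo, Elane, Prtn3, Ctsg, S100a8, S100a9, Anxa1, Ltf, Lcn2 and Camp. Members were all probe sets that the platform annotation gives to one of these 10 genes alone, which made 11 of the 45037 probe sets tested and 10 of the 18193 genes with a probe set of their own. Anxa1 had 2 probe sets and each other gene had 1. The genes are taken as selected on their log2 difference between stages E1 and E2, so values between the stages are given as a description with no test.

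The cells came from marrow of the femurs and tibiae of female wild-type C57Bl/6 mice aged 8 to 12 weeks, expanded in SP34ex medium. Every group had therefore grown with EPO, stem cell factor, dexamethasone and beta-estradiol before sorting. Stage E1 cells, described as CFUe-like progenitors, were depleted of Lin+ cells and selected for Kit and CD71. Stage E2 cells, described as proerythroblasts, were depleted of Lin+ cells and of Kit+ cells and then selected for CD71. The labels give day 3 for E1 and day 3.5 for E2, and the methods text gives another day than the labels for E1. After 5.5 h without cytokines, cells of each stage received EPO at 4 U/mL for 90 min or none. Stage E1 had 4 arrays without EPO and 4 with EPO, and stage E2 had 3 and 3, 14 in all. Stage, sorting step, culture day and any batch that went with them cannot be told apart. In such bulk samples, fewer cells of a type and less RNA per cell cannot be told apart either.

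Neutrophil granules are made in order as a granulocyte matures. Azurophil, or primary, granules fill at the promyelocyte step with myeloperoxidase and serine proteases. Specific granules follow with lactoferrin, lipocalin and cathelicidin, and gelatinase granules come last. S100A8 and S100A9 form calprotectin, the most plentiful protein of the neutrophil cytosol, and annexin A1 is a phospholipid-binding protein that rises with glucocorticoids. Erythroid and granulocytic cells both descend from Kit-positive myeloid progenitors. C/EBP factors, PU.1, RUNX1 and MYB are known regulators of azurophil genes.

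The DNA just upstream of 6 members is shown because these genes had among the largest stage differences on the arrays. Each sequence holds the 250 bases before the RefSeq start of the gene (GRCm38.p6), 5′ to 3′ on the gene's own strand. Capitals mark matches on either strand to GAGGAA, a core of the ETS family that includes PU.1, or to TTNNGNAA, a loose C/EBP pattern. The windows are chr11:87793534-87793783 (plus strand) for Mpo, chr10:79886062-79886311 (plus) for Elane and chr10:79879417-79879666 (plus) for Prtn3. Those of Ctsg, S100a8 and S100a9 are chr14:56102575-56102824 (minus), chr3:90668821-90669070 (plus) and chr3:90695722-90695971 (minus).
Mpo: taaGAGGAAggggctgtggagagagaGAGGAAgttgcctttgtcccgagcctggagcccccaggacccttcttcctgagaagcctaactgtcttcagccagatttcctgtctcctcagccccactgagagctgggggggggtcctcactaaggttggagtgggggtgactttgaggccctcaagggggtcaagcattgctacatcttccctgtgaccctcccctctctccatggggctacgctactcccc
Elane: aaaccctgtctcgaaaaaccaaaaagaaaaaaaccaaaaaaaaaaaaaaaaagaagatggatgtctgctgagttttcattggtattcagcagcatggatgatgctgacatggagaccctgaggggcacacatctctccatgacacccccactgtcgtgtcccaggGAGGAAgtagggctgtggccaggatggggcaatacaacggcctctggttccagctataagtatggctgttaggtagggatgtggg
Prtn3: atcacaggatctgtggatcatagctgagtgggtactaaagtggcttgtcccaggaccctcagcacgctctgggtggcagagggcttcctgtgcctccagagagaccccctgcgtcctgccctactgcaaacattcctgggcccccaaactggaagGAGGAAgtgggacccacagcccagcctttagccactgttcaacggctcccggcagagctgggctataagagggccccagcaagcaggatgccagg
Ctsg: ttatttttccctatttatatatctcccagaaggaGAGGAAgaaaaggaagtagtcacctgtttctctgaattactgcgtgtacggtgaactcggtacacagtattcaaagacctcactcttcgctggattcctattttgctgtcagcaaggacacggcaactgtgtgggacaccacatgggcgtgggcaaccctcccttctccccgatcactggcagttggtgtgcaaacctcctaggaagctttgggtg
S100a8: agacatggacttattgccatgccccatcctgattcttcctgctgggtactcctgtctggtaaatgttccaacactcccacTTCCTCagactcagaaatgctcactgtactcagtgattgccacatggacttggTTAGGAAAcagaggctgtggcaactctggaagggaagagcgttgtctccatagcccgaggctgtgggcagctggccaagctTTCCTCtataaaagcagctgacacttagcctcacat
S100a9: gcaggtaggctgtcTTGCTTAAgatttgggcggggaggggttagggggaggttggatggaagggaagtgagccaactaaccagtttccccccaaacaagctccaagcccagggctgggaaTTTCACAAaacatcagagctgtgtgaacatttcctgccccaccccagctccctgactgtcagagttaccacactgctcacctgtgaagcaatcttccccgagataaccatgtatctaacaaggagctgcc

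GAGGAA or its reverse complement stood in 8 of the 10 member windows, against 23.25% of 32851 windows of the same length. It was in all 4 azurophil members and in S100a8, Anxa1, Ltf and Lcn2, and was not found in S100a9 or Camp. In Elane and Prtn3, which are neighbours on chromosome 10, the match began 85 and 95 bases before the start. In Mpo there were 2 matches, beginning 247 and 224 bases before it. TTNNGNAA was in 5 of 10 windows, against 36.85% of all, and in none of the 4 azurophil members. The RUNX pattern TGTGGT was in 2 of 10 (Ctsg and S100a9), against 14.05%. The MYB pattern CAACNG was in 4 of 10 (Elane, Prtn3, Ctsg and Lcn2), against 29.33%. Patterns were searched on both strands and may overlap one another. A match is a string of letters and no shown binding site.

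Affymetrix mouse expression arrays were used, and the authors' GC-RMA values are on a log scale with 1 constant per probe set taken away. A value of 0 therefore does not mean absence, and only differences between arrays can be read. Base 2 is inferred and not stated in the file. Arrays of one group correlated over all probe sets at 0.719 to 0.912, and array medians lay from -0.023 to 0.031. The SD over probe sets was 0.63 to 0.74 on E1 arrays and 0.26 to 0.29 on E2 arrays. Values near the constant in E2 were therefore not particular to the members. Labels call the samples biological replicates. The number of arrays limits the precision.

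Among the members, the largest stage differences were those of the azurophil genes and the S100 pair. Mpo (1415960_at) encodes myeloperoxidase, which makes hypochlorous acid. Its centred log2 values in E1 were 9.43, 9.88, 9.06 and 9.30 without EPO and 9.47, 9.23, 9.06 and 9.11 with EPO. In E2 they were -0.08, -0.01 and -0.07 without EPO and -0.07, -0.07 and -0.08 with EPO. All 8 E1 arrays lay far above all 6 E2 arrays. The E2 minus E1 difference was -9.47 (SE 0.16) without EPO and -9.29 (SE 0.16) with EPO, a 707-fold and a 628-fold lower signal in E2.

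The 3 serine proteases of azurophil granules had the same order of stages. Elane (1422928_at), neutrophil elastase, read 6.96, 7.56, 6.75 and 6.70 in E1 without EPO and 6.54, 6.95, 6.57 and 6.89 with EPO. Its E2 arrays read -0.05, 0.01 and -0.01 without EPO and -0.05, -0.05 and -0.01 with EPO. The stages did not overlap, with differences of -7.01 without EPO and -6.77 with EPO (SE 0.18 each). Prtn3 (1419669_at), proteinase 3, read 7.14, 7.34, 7.29 and 6.99 in E1 without EPO and 7.29, 7.30, 6.89 and 7.12 with EPO. In E2 it read 0.02, -0.12 and -0.17, and -0.07, -0.08 and -0.08 with EPO. Prtn3 had the narrowest spread of the proteases in E1, and its differences were -7.28 and -7.22 (SE 0.11 each).

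Ctsg (1419594_at), cathepsin G, was the protease with the widest spread in E1. It read 8.56, 8.38, 7.40 and 7.55 without EPO and 7.87, 7.79, 7.14 and 7.49 with EPO. In E2 it read -0.10, -0.04 and -0.01 without EPO and -0.03, 0.01 and 0.33 with EPO. Replicate 3 of E2 with EPO was the highest E2 array for Ctsg, still well under every E1 array. The differences were -8.02 without EPO and -7.47 with EPO (SE 0.28 each).

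S100a8 and S100a9, neighbours on chromosome 3 whose products pair as calprotectin, also separated the stages fully. S100a8 (1419394_s_at) read 9.71, 9.59, 9.26 and 9.33 in E1 without EPO and 9.14, 9.27, 8.92 and 8.92 with EPO, against -0.14 to 0.01 over the 6 E2 arrays. S100a9 (1448756_at) read 8.52, 8.45, 9.06 and 8.86 in E1 without EPO and 8.73, 7.94, 8.60 and 8.54 with EPO, against -0.12 to -0.05 in E2. S100a8 differed by -9.49 without EPO and -9.16 with EPO (SE 0.11 each), and S100a9 by -8.81 and -8.55 (SE 0.18 each). The suffix of the S100a8 probe set marks probes that can match several transcripts.

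Anxa1 depended on the probe set. With 1448213_at, E1 read 6.66, 6.47, 6.17 and 6.01 without EPO and 6.56, 6.05, 5.25 and 5.51 with EPO, while the 6 E2 arrays lay from -0.25 to 0.01. That probe set differed by -6.41 and -5.87 (SE 0.27 each). The other, 1444016_at, lay within -0.03 to 0.11 on all E1 arrays and its stage differences were -0.06 and -0.05. The 2 probe sets of Anxa1 thus gave different pictures, and the one with the larger SD over the 14 arrays stands for the gene.

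The 3 specific granule genes behaved unlike the azurophil genes. Lcn2 (1427747_a_at), the siderophore-binding lipocalin, read 1.45, 1.07, 1.32 and 0.83 in E1 without EPO and 1.65, 1.25, 0.87 and 0.08 with EPO, and -0.11 to -0.04 in E2. Its differences of -1.23 and -1.05 (SE 0.29 each) were the largest of the 3. Camp (1419691_at), cathelicidin, stayed near its constant in E1 without EPO, at 0.00, -0.02, 0.02 and 0.15, and in E2, at -0.08 to -0.02. With EPO its E1 arrays read 1.08, 0.43, -0.01 and 0.54. Ltf (1450009_at), lactoferrin, read 1.34 on replicate 1 of E1 without EPO and between -0.02 and 0.01 on the other 13 arrays. Its stage difference without EPO, -0.34, rested on that array and was -0.01 without it.

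**Figure D1:**
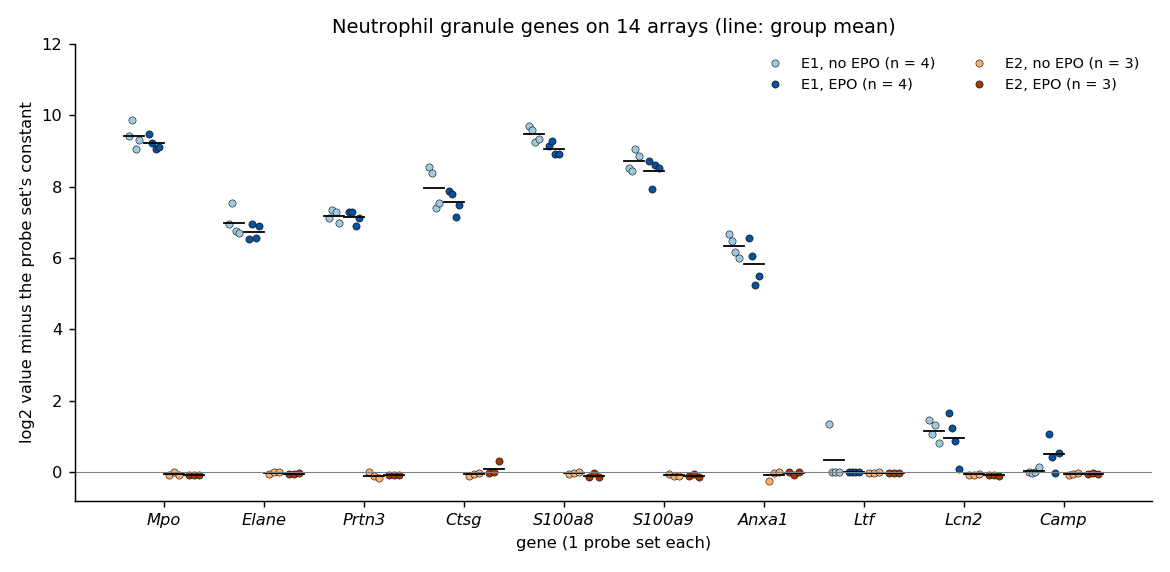
Centred log2 values (vertical axis, value minus the probe set's constant) of the 10 genes on 14 arrays, 1 probe set a gene; points are arrays, lines are group means and colours are stage and EPO. 7 genes lie 5.25 or more above their constant on every E1 array, whereas Ltf, Lcn2 and Camp lie at 1.65 or below, and all E2 points lie between -0.25 and 0.33.

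Over the 11 member probe sets, 8 were past limma's threshold (adjusted p under 0.05) in the direction of lower in E2, both without and with EPO. The background was 10.8% of all probe sets without EPO and 12.0% with EPO, and nothing is read from the count because the stage values chose the members. The median difference of the members was -7.01 without EPO and -6.77 with EPO, against -0.03 over all probe sets in each. Every E1 array lay above every E2 array in 10 of 11 probe sets without EPO (background 38.0%) and in 11 of 11 with EPO (background 47.1%). Among the 20 largest falls of the whole array 7 were members in each comparison. S100a8, Mpo and S100a9 held the 3 largest falls, in that order without EPO and with Mpo ahead of S100a8 with EPO. The gap between S100a8 and Mpo (0.03 log2 units without EPO) was within their SEs. Quantile normalization, which forces every array to one distribution, kept each direction of the 7 genes and shrank the sizes. As E1 arrays spread more widely than E2 arrays over all probe sets, a common distribution by itself narrows E1 and widens E2. The smaller sizes are thus no separate measure of the difference. Without EPO, Mpo moved to -6.97, S100a8 to -7.08, S100a9 to -6.52, Ctsg to -6.07, Prtn3 to -5.51, Elane to -5.21 and Anxa1 to -4.89.

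Further genes tied to the same granules or to the cells that make them were examined from written lists. Like the members, these and the later lists were chosen with earlier results of these data known. Their p-values are therefore no independent support. Of 11 other azurophil genes, 8 were lower in E2 without EPO, 1 was higher and 2 did not pass, with a median of -2.62 against -0.03 over all probe sets (with EPO 8, 1 and 2, median -2.80). In either direction 20.9% of all probe sets passed without EPO and 22.3% with EPO. Each gene of this and the later lists stood by its probe set of largest SD, which a stage difference raises. The shares over all probe sets are thus an unlike background, and the share among probe sets so chosen was not counted. Ms4a3, a membrane protein of granulocyte and monocyte precursors, differed by -6.23 (SE 0.23, limma adjusted p 2.89e-08). The lysozyme genes Lyz1 and Lyz2 differed by -5.78 (SE 0.31, limma adjusted p 2.95e-07) and -4.34 (SE 0.29, limma adjusted p 1.47e-06). These paralogs are near-identical, and their probe sets may share signal. Man2b1, a lysosomal mannosidase, differed by -2.62 (SE 0.13, limma adjusted p 1.90e-07). The one gene that rose was Ctsd, the lysosomal protease cathepsin D, by 1.32 (SE 0.12, limma adjusted p 1.57e-05).

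Of 18 other specific and gelatinase granule genes, 6 were lower in E2 and 12 did not pass, both without and with EPO, and the medians were -0.16 and -0.12. Chil3, a chitinase-like protein, differed by -8.07 (SE 0.25, limma adjusted p 6.47e-09) and had the fourth largest fall of the array. Ngp, neutrophilic granule protein, differed by -3.43 (SE 0.66, limma adjusted p 0.00302), Slpi, a protease inhibitor, by -1.62 (SE 0.23, limma adjusted p 0.00039) and Cyba, a subunit of the NADPH oxidase, by -0.83 (SE 0.15, limma adjusted p 0.00188). Mmp8 and Mmp9, the neutrophil collagenase and gelatinase, had differences of -0.52 and -0.04 that did not pass, as had Olfm4 at -0.03 (limma adjusted p 0.338, 0.251 and 0.162). These 3 were named after their values were seen, as were Hp and Cybb. Without EPO, Hp ran from 0.18 to 3.15 in E1 with a mean of 2.14, against a mean of -0.14 in E2. Cybb ran from -0.01 to 3.12 in E1 with a mean of 2.06, against a mean of -0.04 in E2.

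**Figure D2:**
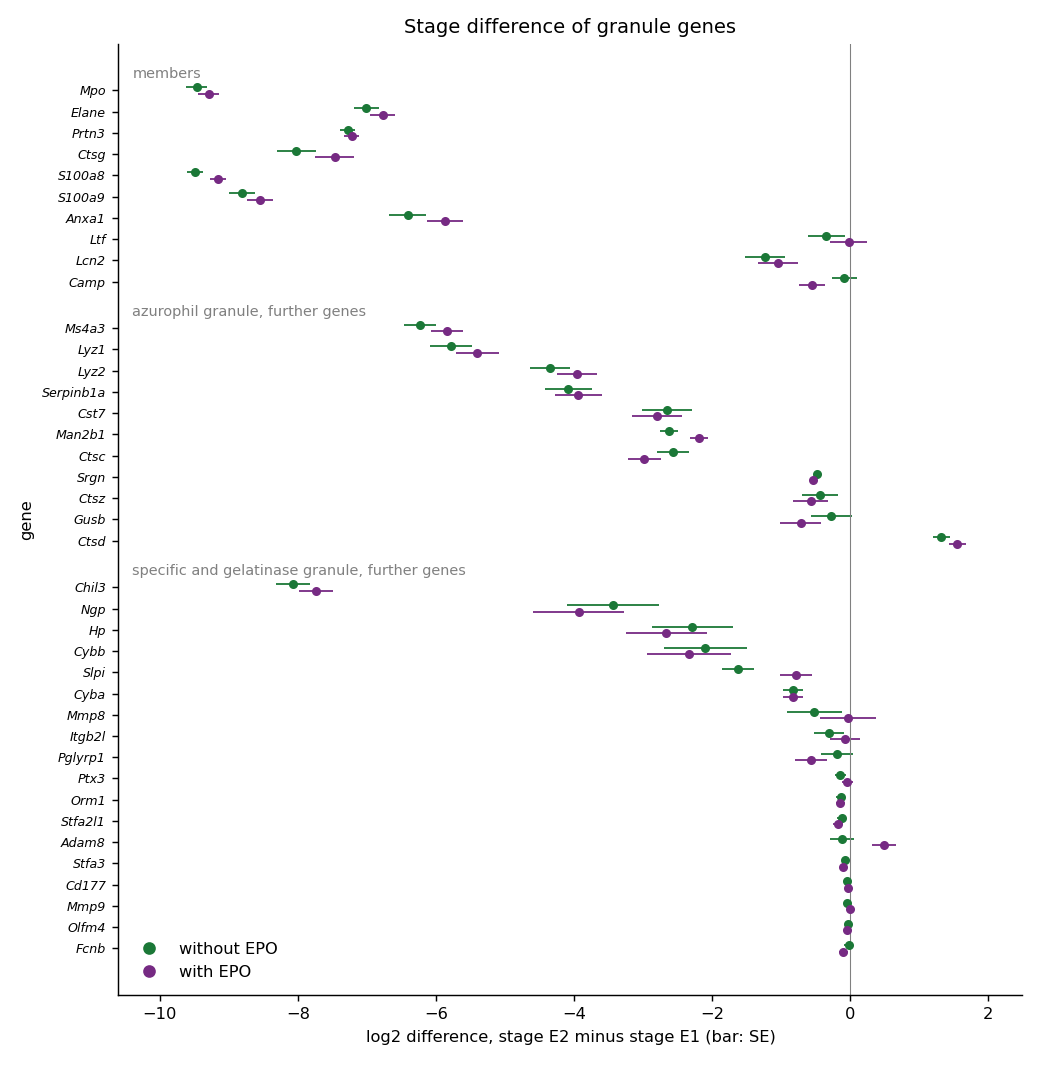
Difference between stages (horizontal axis, log2 of E2 minus E1, bars are SE) for the 10 members and for further azurophil and specific or gelatinase granule genes, without EPO in green and with EPO in purple. The 4 azurophil members lie between -9.47 and -6.77 and the further azurophil genes other than Ctsd lie left of 0, down to -6.23 for Ms4a3, while most specific and gelatinase genes lie close to 0 and Chil3 lies at -8.07.

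Relatives of the S100 and annexin members had smaller differences, from which nothing is read because the members are taken as selected on theirs. Of 11, 4 were lower in E2 without EPO, namely Anxa2 (-3.28), Anxa3 (-3.21), S100a10 (-1.47) and Anxa5 (-0.72), and Anxa7 was higher (1.55). With EPO 3 were lower and 1 higher. Anxa2 and S100a10 encode the 2 partners of one membrane-linked complex. The medians of the 11 relatives were -0.80 without EPO and -0.65 with EPO. Anxa1 had -6.41 and -5.87 by 1448213_at and -0.06 and -0.05 by 1444016_at. The mean of its probe sets gave -3.24 and -2.96.

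Few receptors that mark neutrophils and their precursors were lower in E2, and over all probe sets 10.8% were lower without EPO. Of 14, 1 was lower without EPO, the IgG receptor gene Fcgr3 (-2.92, SE 0.58), and 4 were higher: Csf2rb (2.03), Cxcr4 (1.77), Cd24a (1.30) and Itgb2 (0.93). Csf3r, the G-CSF receptor, had -0.09 (limma adjusted p 0.305) and Cxcr2, a chemokine receptor of mature neutrophils, -0.02 (limma adjusted p 0.469), and neither passed. Both were named after their values were seen. Their group means lay from -0.05 to 0.09 over both stages, near the constant. Whether these probe sets could show a fall was not tested, so no contrast with the granule genes is read from this list.

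Transcription factors of granulopoiesis were mixed. Of 10, 3 were lower in E2, namely Cbfb (-3.75, SE 0.24), which encodes the partner of RUNX1, Myb (-3.25, SE 0.17) and Gfi1 (-2.49, SE 0.50), a repressor needed for granulocyte formation. Cebpb (4.22, SE 0.41) and Runx1 (1.63, SE 0.48) were higher. Spi1, the gene of PU.1, had 0.56 (limma adjusted p 0.251) and Cebpa -0.35 (limma adjusted p 0.197), and these 2, named after their values were seen, did not pass. Of 8 glucocorticoid-responsive genes, examined because the medium held dexamethasone and because Anxa1 is one of that class, 3 were higher and 3 lower without EPO. The 3 higher were Tsc22d3 (2.31), Dusp1 (2.10) and Sgk1 (1.65), and the 3 lower were Klf9 (-1.76), Nr3c1 (-1.30) and Zbtb16 (-1.27).

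Markers of other cells moved between the same stages. Early progenitor markers were lower in E2 in 5 of 10, with Kit, the receptor used in the sort, at -3.98 (SE 0.18) and Gata2 at -2.55 (SE 0.20). The other 3 were Sox4 (-5.01), Ifitm1 (-3.63) and Hoxa9 (-2.70). Mean values of that list ran from 1.44 to 1.84 over the E1 arrays and from -0.15 to -0.04 over the E2 arrays. Monocyte markers were lower in 5 of 10 without EPO: F13a1 (-6.03, SE 0.40), Csf1r (-3.70), Ccr2 (-2.93), Mpeg1 (-2.32) and Ms4a6c (-0.58). Their list mean ran from 0.99 to 1.81 in E1 and from -0.13 to -0.05 in E2, and with EPO 3 of 10 were lower. Mast cell and basophil markers were lower in 4 of 9 without EPO: Hdc (-4.73, SE 0.08), Ms4a2 (-4.57), Cpa3 (-3.99) and Mcpt8 (-2.07). Their list mean ran from 1.42 to 2.02 in E1 and from -0.10 to -0.01 in E2, and with EPO 5 of 9 were lower.

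Of the remaining lists, none of 9 B cell and none of 9 T and NK cell markers passed limma's threshold in either stage comparison. Of 6 eosinophil markers 0 passed without EPO and 1 with EPO, Il5ra, and of 9 macrophage markers 1 was lower without EPO, C1qb (-0.51). Megakaryocyte markers were higher in E2 in 7 of 9, among them Ppbp (4.33), Gp1bb (2.20) and Pf4 (1.70). Erythroid markers were higher in 10 of 15 without EPO, among them the anion exchanger gene Slc4a1 (6.61, SE 0.33), Alas2 of haem synthesis (4.22, SE 0.27), Trim10 (2.79, SE 0.06) and the transcription factor gene Gata1 (0.67, SE 0.07). The 1 lower was the globin gene Hba-a2 (-2.22, SE 0.33), and its near-identical copy Hba-a1 had -0.01. As the values are centred, presence of erythroid RNA in E1 could not be judged from levels. The part of any of these cell types, or of the Kit sort, in the granule gene values was not tested.

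**Figure D3:**
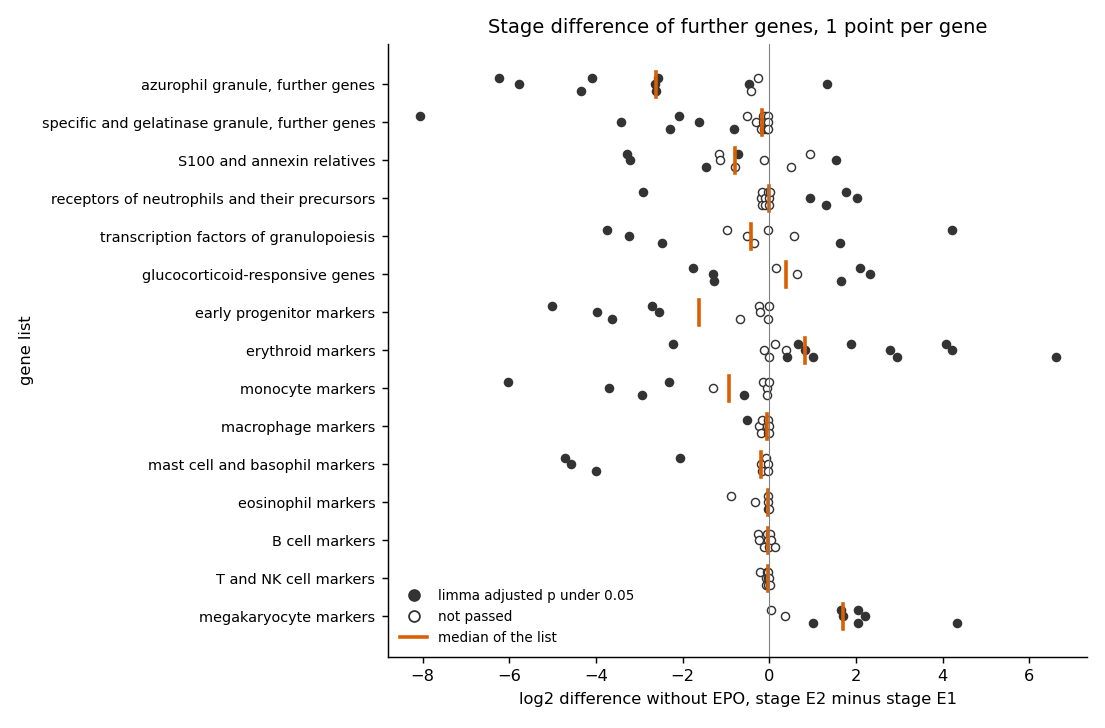
Difference between stages without EPO (horizontal axis, log2 of E2 minus E1) for the 158 genes of 15 lists, 1 point a gene; filled points passed limma's threshold and orange bars are list medians. Azurophil, early progenitor and monocyte lists have their medians left of 0, at -2.62, -1.62 and -0.94, and the megakaryocyte and erythroid medians lie to the right.

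EPO for 90 min did not change any member past the threshold. In E1, 0 of 11 member probe sets passed limma's test (1.16% of all probe sets did, which is 524, and 61 in the fit with replicate numbers as blocks), and at an unadjusted p under 0.05 there was 1 (background 8.84%). That one was S100a8, whose 4 EPO arrays, at 8.92 to 9.27, overlapped the arrays without EPO, at 9.26 to 9.71, by a narrow margin. Its change was -0.41 (SE 0.13, 95% interval -0.72 to -0.10, limma adjusted p 0.319). With replicate numbers as blocks, 0 of 11 passed the adjusted and 3 of 11 the unadjusted threshold (background 9.62%), all lower: S100a8 (limma adjusted p 0.134), Anxa1 (0.450) and Ctsg (0.486). Within the 4 numbered pairs S100a8 changed by -0.57, -0.32, -0.34 and -0.41, Anxa1 by -0.10, -0.43, -0.92 and -0.50 and Ctsg by -0.69, -0.59, -0.25 and -0.06. Each of these 3 genes was lower with EPO in 4 of 4 pairs, and no other member was. Point estimates were below 0 in 10 of 11 probe sets, with a member median of -0.26 against -0.00466 over all probe sets. The shares of all probe sets lower in 4 of 4 pairs, or with an estimate below 0, were not counted. Several members also vary together in E1, so no direction of the set is read from these 2 counts. No member had groups without overlap (background 2.30% lower and 3.28% higher).

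The azurophil genes had small estimates with wide intervals in E1 in the fit without blocks. Mpo changed by -0.20 (95% interval -0.63 to 0.23), Elane by -0.26 (-0.76 to 0.24), Prtn3 by -0.04 (-0.32 to 0.24) and Ctsg by -0.40 (-1.15 to 0.35). The signs of Mpo and Prtn3 turned under quantile normalization, to 0.16 and 0.20. S100a9 changed by -0.27 (-0.78 to 0.23), which became 0 under quantile normalization, and Anxa1 by -0.49 (-1.21 to 0.24). With replicate numbers as blocks the estimates were the same and the SEs smaller. For Ctsg the SE was 0.13 with blocks and 0.31 without, and for Anxa1 0.15 and 0.30. The width of the printed intervals thus holds for the fit without blocks. These intervals leave room for a change of up to about the size shown at their ends, so no claim of equal levels follows.

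Among specific granule genes, Camp was the member with an estimate above 0. Its change was 0.47 (SE 0.21, 95% interval -0.04 to 0.98, limma adjusted p 0.633), with 3 of 4 EPO arrays above all arrays without EPO and replicate 3 at -0.01. Lcn2 changed by -0.21 (-1.01 to 0.60) and Ltf by -0.33 (-1.08 to 0.42), the latter through the single high array. Neither passed the test.

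In E2, 0 of 11 member probe sets passed either the adjusted (background 4.62%) or the unadjusted threshold (background 16.5%). Changes ran from -0.08 for S100a8 to 0.15 for Ctsg, whose highest array was replicate 3 with EPO. The 7 genes with large stage differences lay far lower in E2 than in E1. Whether a further fall could show there was not tested, so no absent response in E2 is read from the count. The stage by EPO interaction was called for 0 of 11 (background 0.415%, and 0 of 11 at an unadjusted p under 0.05, background 7.19%). Its estimates ran from -0.47 for Camp to 0.55 for Ctsg. Where the E2 change is small, the interaction mostly restates the E1 change with its sign turned. For S100a8 the interaction was 0.33 (SE 0.16, limma adjusted p 0.762). With blocks it was the 1 of 11 past the unadjusted threshold (background 7.45%, limma adjusted p 0.538). Over the 158 further genes, 1 passed for EPO in E1, the erythroid gene Trim10 (-0.49), but not in the fit that took replicate numbers as blocks (limma adjusted p 0.0516). In E2, 5 passed: Csf2rb (1.13), Tal1 (0.91) and Gata2 (0.58) rose and Cxcr4 (-0.96) and Sgk1 (-1.18) fell. None of these 5 encodes a granule protein, and 0 of 29 further granule genes passed in either stage. Over all probe sets 1.16% passed in E1 and 4.62% in E2. At such shares few calls are due among 29 or 158 genes, so nothing is read from these counts.

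**Figure D4:**
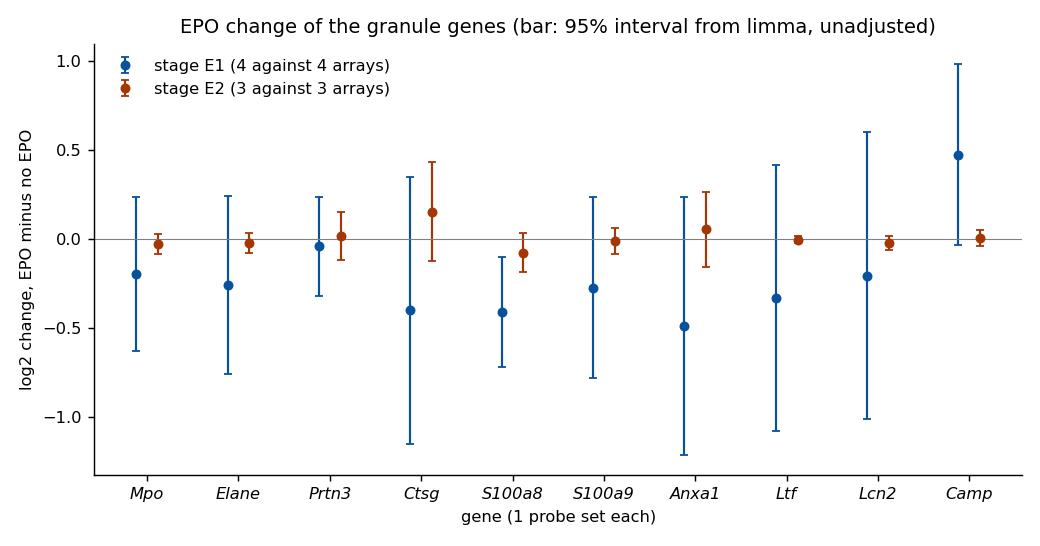
Change with EPO (vertical axis, log2 of EPO minus no EPO) of the 10 members in E1, 4 against 4 arrays, and in E2, 3 against 3; bars are 95% intervals from limma without blocks or adjustment. In E1 all intervals of this fit except that of S100a8 cross 0, and all E2 estimates lie within -0.08 to 0.15. With blocks, not drawn here, Anxa1 and Ctsg also passed the unadjusted threshold in E1.

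Within E1 the 7 members with large stage differences, apart from S100a9, tended to deviate in the same direction from array to array. Without S100a9, r within pairs ran from 0.171 (Elane and Anxa1) to 0.928. Ltf, Lcn2 and Camp were not compared in pairs. Deviations from the group means were compared over the 8 E1 arrays, which share culture, sort and array handling, so the coefficients are descriptive. Of 21 pairs among the 7 genes with large stage differences, 15 had r above 0, and the median was 0.484. Ctsg and S100a8 had the highest coefficient (0.928) and S100a8 and S100a9 the lowest (-0.784), although the latter 2 encode partners of one complex. S100a9 had a negative coefficient with each of the other 6 genes. The mean of the 7 genes was 8.14, 8.24, 7.86 and 7.82 on E1 arrays without EPO and 7.94, 7.79, 7.49 and 7.65 with EPO. It was higher on replicates 1 and 2 than on 3 and 4 in both groups.

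**Figure D5:**
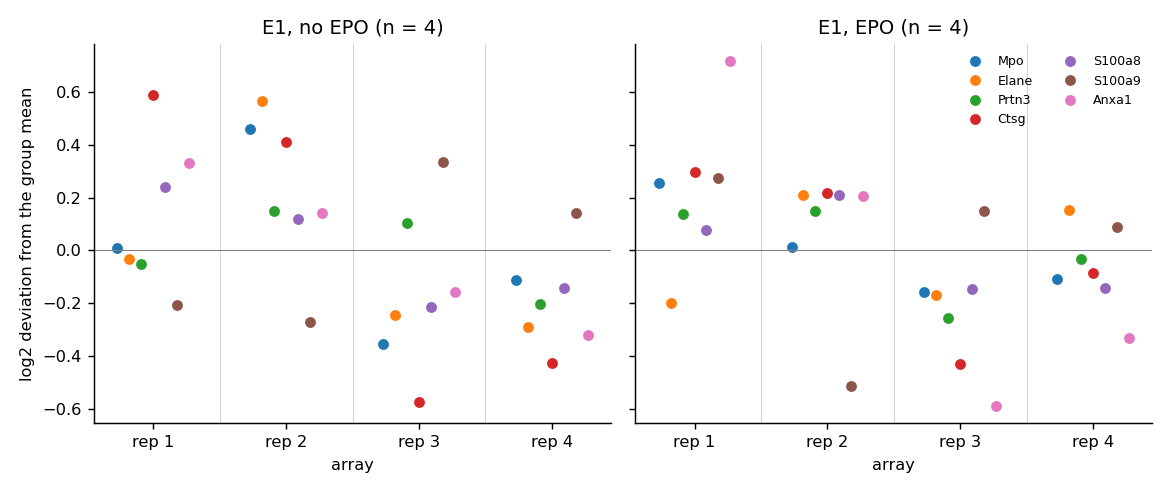
Deviation of 7 members from their group mean (vertical axis, log2) on each of the 4 E1 arrays without EPO (left) and with EPO (right), 1 colour a gene. S100a9, in brown, lies below 0 on replicate 2 and above 0 on replicates 3 and 4 in both groups, opposite to Ctsg in red.

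List means were set beside the mean of these 7 genes over the same 8 deviations. The coefficient was 0.931 for the further azurophil genes, 0.716 for mast cell and basophil markers, 0.495 for monocyte markers and -0.01 for early progenitor markers. It was -0.603 for further specific and gelatinase genes and -0.908 for the S100 and annexin relatives. B cell markers, of which none passed between the stages, had 0.476, megakaryocyte markers had -0.763 and erythroid markers -0.321. The further azurophil genes had the highest coefficient of all lists, and B cell markers came close to monocyte markers. With 8 arrays these coefficients are descriptive, and what lies behind them was not tested.

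The genes with the most similar profile over all 14 arrays were named by Pearson's r to the mean centred profile of the 10 members. They were Plac8 (0.998), Car1 (0.998), Ms4a3 (0.998), Hdc (0.996), Lyz1 (0.996), Pawr (0.995), Bcat2 (0.995), Psmb3 (0.995), Chil3 (0.995) and C1qbp (0.995). Of 18183 other genes 37 reached at least 0.99, and such values mostly restate the stage difference. By deviations from group means, where stage and EPO are taken out, the order changed to Cela1 (0.973), Car1 (0.963), Gm6787 (0.956), Emb (0.956), Zfp330 (0.949), Prdx2 (0.943), Syce2 (0.941), E2f2 (0.941), Mfhas1 (0.938) and M1ap (0.936). Of 18183 other genes 37 reached at least 0.9 by deviations. The mean profile includes Ltf, whose single high array (1.34, replicate 1 of E1 without EPO) raised the mean deviation of that array. Car1, a carbonic anhydrase gene, was in both sets, and Chil3 had -0.445 by deviations. Of the members themselves, Anxa1 had the highest r by deviations (0.958) and S100a9 the lowest (-0.365).

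Genes beside the members on the chromosome were examined too. RefSeq neighbours were taken as 5 protein-coding genes on each side, 80 in all, of which 63 had a value. Without EPO 3 were lower in E2 and 11 higher, the median was -0.02 and 0 had a difference below -5. Over all probe sets 20.9% passed in either direction, 10.8% were lower, and 24 of 45037 lay below -5. Each neighbour stood by its probe set of largest SD, so these shares are an unlike background. Nothing about the surroundings of the members is read from the counts. Lpo and Epx, peroxidase genes next to Mpo, had -0.02 and -0.02 and did not pass (limma adjusted p 0.267 and 0.35). The largest fall was that of the basophil protease gene Mcpt8 beside Ctsg (-2.07, SE 0.29, limma adjusted p 0.000313), and the largest rise was that of Ccrl2 beside Ltf (3.04, limma adjusted p 6.52e-05). These neighbours were named after their values were seen.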

How the data were processed

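RNA of 14 samples was hybridised to Affymetrix mouse expression arrays, 1 array a sample, as 4 groups set by the labels (E1 without EPO, 4; E1 with EPO, 4; E2 without EPO, 3; E2 with EPO, 3). The authors used GCOS for the scans and GeneSpring GX for GC-RMA. The submitters' processing notes name GCRMA. The deposited log2 values have 1 constant per probe set subtracted, so levels cannot be read. In 78.0% of probe sets (35129) a pair of values of equal size, within 2e-06, stood above and below 0, but the median of the 14 arrays was 0 in only 438, so the constant was not that median. Each array's own centring is not stated in the sources used here.

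Of 45101 probe sets, 64 controls were left out. The annotation gives 34945 a single gene, 932 several and 9160 none, and 34741 were matched to a current Entrez gene. Where a gene had more than 1 probe set, that with the largest SD across arrays stood for it. Differences were tested in R 4.3.3 by limma 3.58.1, using lmFit and eBayes, two-sided, with Benjamini-Hochberg adjustment over all 45037 probe sets and adjusted p under 0.05 taken as passed. EPO was tested within each stage, and stage differences and the interaction in 1 fit of all 14 arrays. Profiles were compared in Python 3.11.15 with numpy 2.4.6 and pandas 2.3.3. Promoter windows came from RefSeq (GRCm38.p6), and a window was found for all 10 members.

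Precision follows from the number of arrays and their spread. On simulated data of 45037 probe sets, for EPO in E1 the fit found 74% of true changes sized 1 log2 unit and 91% of those sized 2, and for EPO in E2 66% and 78%. The simulated SDs were pooled over both stages and dealt to probe sets in random order. These shares therefore do not describe the noise of a single stage or of the members. For the members the printed intervals, from the fit without blocks, and the SEs with blocks stand. In E1, deviations from the group mean correlated between arrays of one replicate number (0.195, 0.187, 0.173 and 0.152), so numbers were taken to pair them, from the labels' numbers and these deviations. Replicate 4 without EPO correlated best with EPO replicate 3 (0.203).

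Members and lists were chosen with earlier results of these data known. Named are all members, up to 4 genes of each list with the smallest p in each comparison, list genes counted among 5 or fewer, and the 10 genes most like the members by each correlation. Of 184 list genes 158 had a value. Alternatives were centring of arrays on their medians, quantile normalization, replicate numbers as blocks, array weights, only the probe sets with an SD above the median, other sets of arrays in the fit, the methods' one-tailed t-test, averaged probe sets of a gene and each array left out.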

Additional observations from a re-analysis of the deposited data

Results flagged for a closer look

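Of 22 member probe sets and groups of 4 arrays examined for a single array that stands apart, 3 had one, and chance gives about 1 in 20. Ltf read 1.34 on replicate 1 of E1 without EPO, while the other 3 arrays lay between -0.0060 and 0.0038. Ltf also had its highest array in E1 with EPO at replicate 1, with 0.0108 against -0.0014 to 0.00. Anxa1 by its probe set 1444016_at read 0.114 on replicate 1 of E1 without EPO, against -0.0083 to 0.0043 on the others. The 3 values stood on 2 arrays, replicate 1 of E1 without EPO and replicate 1 of E1 with EPO, and of these values that of Ltf without EPO alone exceeded 1 log2 unit.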

How the results depend on the processing

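Members called for EPO numbered 0 in each stage and 0 for the interaction under every alternative run, leaving out each array included (0 to 0), except that the methods' one-tailed t-test without adjustment called 2 in E1. Without EPO 8 member probe sets were past the stage threshold under all alternatives, and with EPO 7 to 9. In fits with a replicate block the members' counts were 0 for EPO in E1, 0 for EPO in E2 and 0 for the interaction. In E2 the numbers did not pair the arrays (correlations -0.061, -0.057 and -0.016). Further genes called for EPO in E1 numbered 1, and 0 under quantile normalization, 0 with the block and 2 with the mean of probe sets. For EPO in E2 they numbered 5, and 1 with the block, Sgk1. For the interaction they numbered 0, and 4 under quantile normalization. Over all probe sets, calls for EPO in E1 numbered 524, with 61 under the block, 839 over the probe sets of larger SD, 1695 in one fit of all arrays, 1890 with array weights and 205 to 349 without each of 5 single arrays. For EPO in E2 they numbered 2081, with 417, 3574 and 999 under the first 3 of these and 834 to 1298 without each single array. For the interaction they numbered 187, with 67 under the block, 869 with array weights, 1718 under quantile normalization and 112 to 331 without single arrays, and for the stages with EPO 10047, with 18996 under array weights. The unadjusted t-test of the methods passed 5194 in E1 and 9739 in E2. The causes were not tested.

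Directions that turned belonged to estimates that had not passed. Under quantile normalization the EPO change in E1 became 0.16 for Mpo, 0.20 for Prtn3 and 0 for S100a9, the change in E2 became 0.0062 for S100a9, and the interaction became -0.17 for Mpo, -0.055 for Prtn3 and -0.014 for S100a8. For Ltf, the stage difference with EPO became 0.00048, and with centred arrays 0.0033, where the EPO change in E2 became 7.15e-05. With arrays left out in turn, EPO changes in E1 ran from -0.11 to 0.045 for Prtn3, from -0.44 to 0.0038 for Ltf and from -0.44 to 0.088 for Lcn2. In E2 they ran from -0.023 to 0.072 for Prtn3, from -0.035 to 0.0053 for S100a9, from -0.030 to 0.10 for Anxa1 and from -0.010 to 0.019 for Camp. The interaction ran from -0.0077 to 0.44 for Ltf, from -0.027 to 0.13 for Prtn3 and from -0.11 to 0.41 for Lcn2. The mean of both Anxa1 probe sets gave stage differences of -3.24 and -2.96. Over the alternatives run, without that mean, the 7 large stage differences kept their direction, at -9.58 to -6.97 for Mpo and -6.52 to -4.50 for Anxa1.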
